A study of Homo sapiens with 44 samples.

Results

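The collagen genes were examined by ATAC-seq, an assay of how open the chromatin is, in Ccd18-Co cells, an established human colon fibroblast line. Members were taken by name: every peak whose assigned gene symbol reads COL, a number, A and a number, with nothing after it. This gave 1750 of 407383 peaks, named for 44 genes, and all 1750 passed the filter on low coverage. The 11 groups of 4 libraries each were unstimulated cells and cells given IL1B at 0.1 ng/ml by the labels, or IL6, IL13, IL17A, IL22, IFNA, IFNG, TGFB1, TNF or OSM at 10 ng/ml each. The sources of the study differ on the IL1B dose, a figure legend giving a lower one, and the list of cytokines in its methods leaves out IL13. Cytokines were given for a day in serum-free medium, and all groups came from a single cell line with no epithelial or immune cells added. The labels do not say whether the 4 libraries of a group came from separate cultures, so p-values measure the spread between these libraries, which may be technical.

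Collagens are secreted or membrane-bound proteins with a triple helix. The fibrillar types I, III and V form the strong fibres of connective tissue. Type VI forms beaded filaments around cells, type IV the sheet of basement membranes, and type VII the anchoring fibrils that fix epithelium to the tissue below it. Fibroblasts make most of the collagen of the gut wall, and in the fibrosis of inflammatory bowel disease they deposit it in excess.

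The value of a peak is its summed read coverage per Mb of coverage in all peaks of its library, after a composition factor, and is called coverage per Mb below. A peak was called when limma, fitted over all 44 libraries, gave an adjusted p under 0.05 over all 407162 peaks tested. Before taking log2, 0.5 was added to the coverage per Mb, and changes of low peaks are therefore understated. Library totals ran from 148.8 to 823.1 Mb. Low values fell in steps near 75 bases, so the totals correspond to about 1.98 to 11.0 M reads in peaks, and 1 read weighed about 0.5 coverage per Mb in the shallowest library and 0.091 in the deepest. The library labelled IL6 replicate 4 was the shallowest and stood apart from the other IL6 libraries, nearer to the IL13 libraries at COL6A1 and COL7A1. Whether its label is right was not tested. The number of collagen peaks called with IL6 is given with and without this library, and the other IL6 counts include it. Of the fibroblast markers with a promoter-class peak, PDGFRB stood at 16.1 and TWIST2 at 10.9 coverage per Mb in unstimulated cells, and the 7 of 10 fibroblast markers that had one ran from 0.903 up. THY1, PDGFRA and DCN had none. Of the smooth muscle markers 3 of 4 had one, from 0.657 to 10.1 (CNN1), and the 4 endothelial markers ran from 0.538 to 1.72. The 4 epithelial and 4 leukocyte markers had no promoter-class peak in the table.

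The name of a peak is the gene assigned by the authors, and it often was not the gene around the peak. Against GENCODE v44, 875 of the 1750 peaks lay outside the named gene, and 247 of these lay inside another gene. The median distance of the outside peaks from the named gene's start was 59.2 kb. The head-to-head pair COL4A1 and COL4A2, which encode the main type IV chains, was crossed: 117 of the 119 peaks named COL4A2 lay inside COL4A1, and 20 of the 21 peaks named COL4A1 lay inside COL4A2. By the deposited classes 948 peaks were intronic, 622 distal, 108 exonic and 72 promoter.

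Short windows of some called peaks named below are shown, from those with letters that AP-1, NF-kB or interferon-induced factors are known to bind. The choice leaves out matches in other described peaks. The NF-kB motif also lay in the COL1A1 peak 1.7 kb upstream and the COL5A1 intron 9 peak, both lowered by TNF and IL1B. IL13-raised peaks of COL6A1 and COL6A2 held it too. The interferon response motif also lay in the COL6A1 peak 40.3 kb past the start, which TNF, IL1B and TGFB1 lowered. A match is a description of the letters and not a site in use. Capitals mark the match, letters are from hg38, plus strand, and both strands were searched. The AP-1 motif TGANTCA is marked in these windows:
COL7A1 promoter, chr3:48595642-48595671: gcagttggggaTGACTCAcccccaatccag
COL8A1 upstream, chr3:99506146-99506175: gtcctcggttgTGAGTCAcagtcagagtac
COL8A1 upstream, nearer the gene, chr3:99529494-99529523: tttatgacttgTGATTCAaatctatctctt
COL6A3 upstream, chr2:237433078-237433107: aaggcggacacTGATTCAtggtttataagc
COL28A1 intron 11, chr7:7491148-7491177: aaacccccaatTGAGTCAgtcagtgggcag
COL21A1 intron 10, chr6:56144719-56144748: cagcttacctcTGACTCAtaatgtgacctc
The NF-kB motif is marked in these windows:
COL7A1 promoter, chr3:48595467-48595496: cgtggcttctGGGAATTTCCcagaaggttc
COL7A1 exons 9 to 11, chr3:48592308-48592337: tctgaggcgcGGGGACTCCCctcagcccac
COL21A1, chr6:56372852-56372881: tctatgtttaGGGAATTTCCtgcctcataa
COL12A1 downstream, chr6:74851740-74851769: aacagaaattGGGAAATTCCccttggcaaa
The interferon response motif, GAAA repeated after a gap of 2 bases, is marked in these windows:
COL25A1 intron 5, chr4:109047037-109047066: aaagaaaaaaGAAAGTGAAActctccaagg
COL8A1 upstream, chr3:99546365-99546394: cccaagcaagGAAACAGAAAgagaaagaga

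At least 1 cytokine changed 269 of the 1750 peaks, or 15.4%, against 12.5% of all peaks. Of these, 132 were only raised, 120 only lowered, and 17 were raised by one cytokine and lowered by another. The 269 peaks lay at 35 genes, and the other 9 genes had no called peak. The F test over the 11 groups called 483 collagen peaks, 27.6%, against 21.4% of all peaks. Collagen peaks had a median level of 0.974 coverage per Mb, against 0.772 for all peaks. Called peaks stood higher, with medians of 2.09 and 9.84 for those raised and lowered by TGFB1. The shares were not matched for level, and its part in the difference was not tested.

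IL13, the type 2 cytokine, raised 52 collagen peaks, or 2.97%, against 0.604% of all peaks, and lowered 12, or 0.686%, against 0.698%. IL1B lowered 68, or 3.89%, against 1.7% of all peaks, and raised 20, or 1.14%, against 1.44%. TNF lowered 43, or 2.46%, against 1.47%, and raised 44, or 2.51%, against 2.59%. TGFB1, a well known inducer of collagen transcription in fibroblasts, raised 25, or 1.43%, against 1.14%, and lowered 49, or 2.8%, against 2.58%. The share of calls that were raised moved with the scaling for TGFB1: it was 33.8% here, 24.3% with the GC correction, 47.4% with library totals, 56.8% with median-of-ratios factors and 58.0% with loess offsets.

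OSM, an IL-6 family cytokine, raised 42 collagen peaks, or 2.4%, against 3.29% of all peaks, and lowered 16, or 0.914%, against 1.06%. Its raised share of 72.4% became 45.5% with library totals, 40.5% with median-of-ratios factors, 42.6% with loess offsets and 86.2% with the GC correction. The median change over all peaks with OSM was -0.13 on the log2 scale, and its changes were not centred on it. That median was -0.21 with library totals, 0.0062 with loess offsets and 0.16 over peaks with a mean of at least 1 per Mb. IFNG raised 15, or 0.857%, against 1.36%, and lowered 5, or 0.286%, against 0.211%. Its raised share of 75% was 60% with library totals and 64.0% with loess offsets. IFNA raised 6, or 0.343%, against 0.339%, and lowered 4, or 0.229%, against 0.281%.

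IL6 called 1 collagen peak by limma, with 0.042% of all peaks called, and 155 collagen peaks, or 8.86%, had an unadjusted p under 0.05, against 8.1% of all peaks. IL17A called 0, with 0.0273% of all peaks, and 108 at the unadjusted level, or 6.17%, against 6.28%. IL22 called 0, with 0.0457% of all peaks, and 115 at the unadjusted level, or 6.57%, against 7.32%. The IL6 call was at COL13A1, a transmembrane collagen, at chr10:69885305-69885805 in intron 7. It stood at 10.1, 8.95, 9.87 and 9.18 coverage per Mb in unstimulated cells and at 8.05, 7.06, 4.83 and 1.11 with IL6. The lowest was the library labelled IL6 replicate 4, which was the shallowest of all 44, and without it 0 collagen peaks were called by limma, against 5 without IL6 replicate 3. The call at this peak, with an adjusted p of 0.0445, was lost in 11 alternatives, among them leaving out any of the 4 unstimulated libraries. TNF and TGFB1 lowered the same peak, by -1.12 and -1.17, each ± 0.24, with no overlap with the unstimulated libraries.

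**Figure D1:**
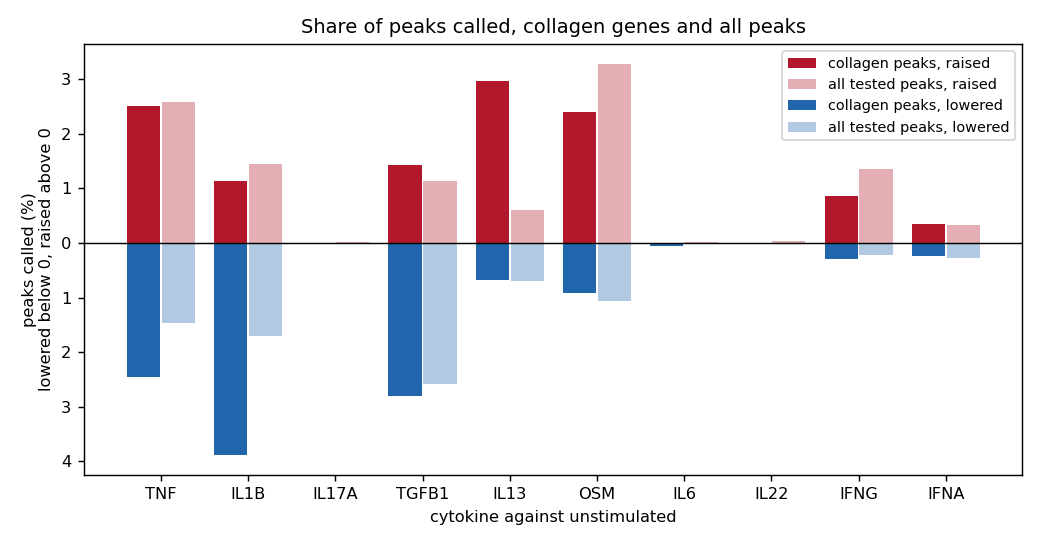
Percent of peaks called for each cytokine against unstimulated cells, raised above 0 and lowered below 0, for the 1750 collagen peaks (dark bars) and for all 407162 tested peaks (pale bars). IL13 raised 2.97% of collagen peaks against 0.604% of all peaks, and IL1B lowered 3.89% against 1.7%.

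The share of a library's coverage that fell in the 1750 collagen peaks is a level, given without a test and without the composition factor. It was 0.475% ± 0.0108 (SD, n = 4) in unstimulated cells, 0.536% ± 0.00717 with IL13 and 0.438% ± 0.00546 with IL1B. The 4 IL13 libraries, from 0.525 to 0.541%, lay above all 4 unstimulated libraries, from 0.459 to 0.484%, and the 4 IL1B libraries, from 0.433 to 0.446%, lay below them. The 4 IFNG libraries, from 0.4439 to 0.4587%, also lay below the lowest unstimulated library, at 0.4594%, by a narrow margin. With IL6 the range was 0.481 to 0.525%, and the top of it was the library labelled replicate 4. The share did not always go with the direction of most calls. With OSM and IFNG, which raised more collagen peaks than they lowered under the scaling used here, it was 0.459% ± 0.00601 and 0.452% ± 0.00636. With TGFB1, which lowered more, it was 0.486% ± 0.00579.

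**Figure D2:**
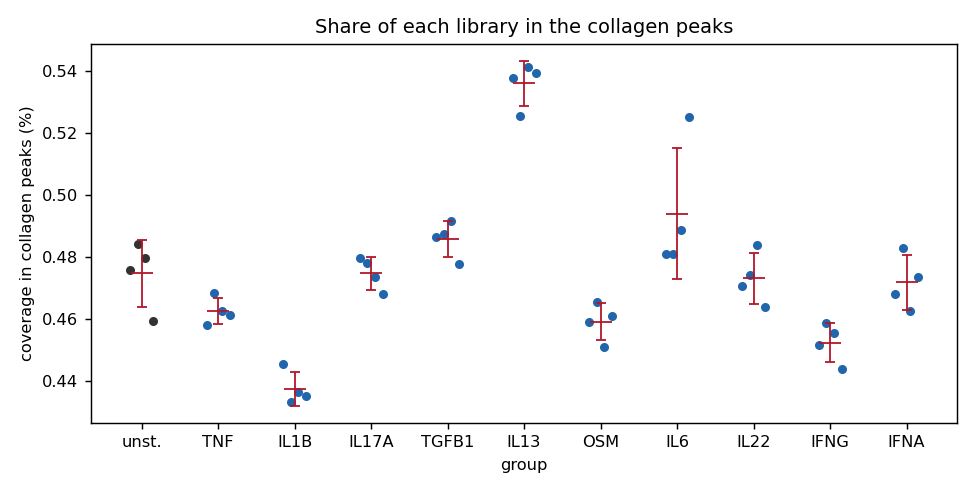
Percent of each library's coverage in the 1750 collagen peaks, by group (points are libraries, n = 4; the red line is the mean and its bar the SD). The vertical axis does not start at 0. The IL13 libraries lie highest, from 0.525 to 0.541%. The mean is lowest with IL1B, whose range of 0.433 to 0.446% overlaps that of IFNG, from 0.444 to 0.459%.

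Type VI collagen, the beaded filament class, held 37 of the 52 collagen peaks raised by IL13. IL13 raised 37 of its 318 peaks and lowered 1, so that 11.9% were called, whereas the fibrillar class had 12 raised of 425 and the basement membrane class 0 called of 192. COL6A1 and COL6A2 encode the α1 and α2 chains of type VI collagen and lie next to each other on chromosome 21. Of the 111 peaks named for them, IL13 raised 32 and lowered 0, with log2 changes from 0.41 to 2.19 and a median of 1.48. Without one library at a time the number raised ran from 25, without IL13 replicate 3 or unstimulated replicate 4, to 31.

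Most peaks within both genes were among them. Of 19 peaks inside COL6A1, IL13 raised 15, and of 9 peaks inside COL6A2 it raised 6. The largest change was at the peak over exons 29 and 30 of COL6A1 (chr21:46000763-46001263). It stood at 2.34, 1.2, 3.18 and 0.607 coverage per Mb in unstimulated cells and at 7.76, 7.89, 11.4 and 9.76 with IL13. All 4 IL13 libraries lay above all 4 unstimulated ones, and the log2 change was 2.19 ± 0.32 (SE, adjusted p = 2.22e-07, limma).

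Summed over the peaks inside the gene, COL6A1 stood at 45.1, 39.8, 43.6 and 37.6 in unstimulated cells and at 115, 101, 119 and 124 with IL13. All 4 IL13 libraries lay above every other library. Next came the library labelled IL6 replicate 4 at 91.2, against 42.7, 47.0 and 51.6 in the other IL6 libraries. Inside COL6A2 the sums were 35.4, 37.4, 38.3 and 34.5 in unstimulated cells and 77.1, 73.9, 87.5 and 73.3 with IL13, and the IL6 replicate 4 library stood at 67.5. The COL6A2 start-site peak (chr21:46097864-46098364, exon 1) rose from 8.43, 9.17, 8.35 and 6.35 to 17.5, 24.2, 22.4 and 18.5 with IL13, a log2 change of 1.30 ± 0.19 (adjusted p = 8.5e-08). The COL6A1 promoter peak 0.268 kb upstream of the start was called for no cytokine, at 6.95 ± 1.13 in unstimulated cells. The F test over the 11 groups did call it (adjusted p = 0.0137), with group means from 4.79 with TGFB1 to 8.31 with OSM.

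**Figure D3:**
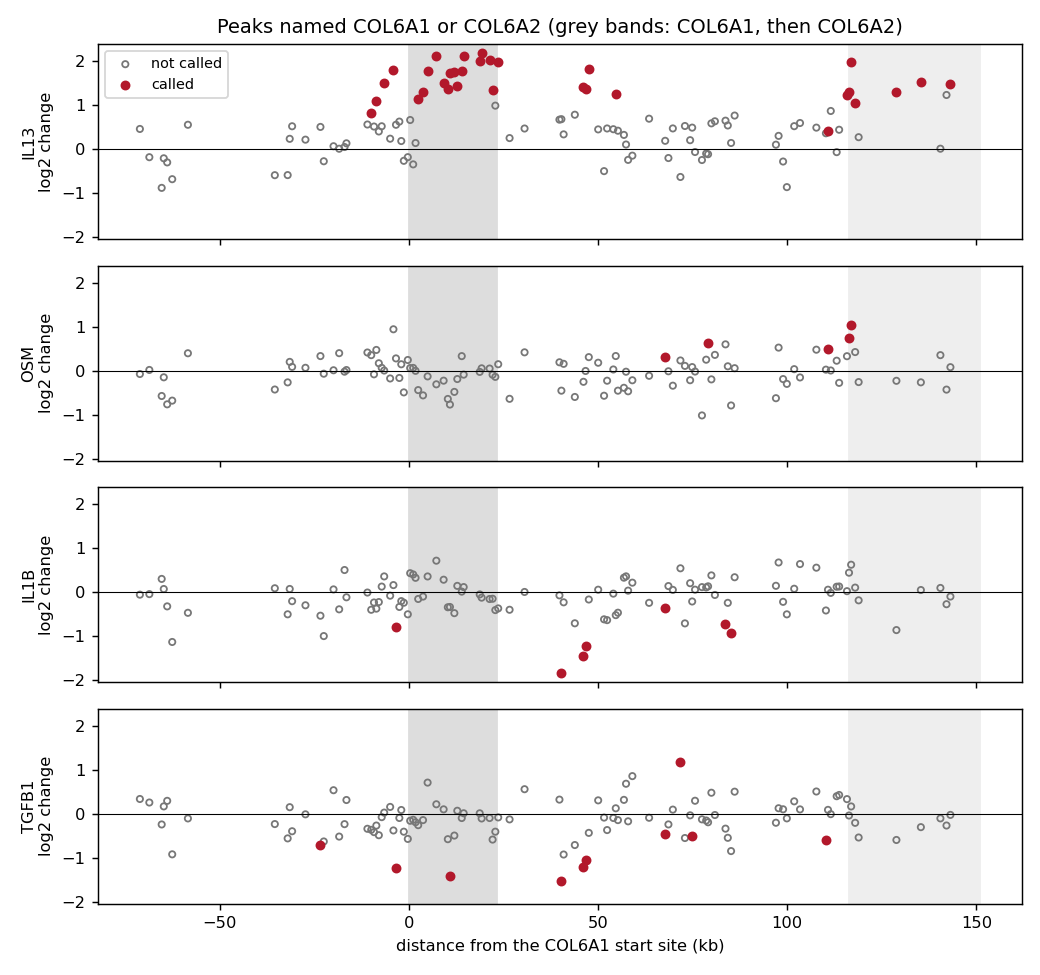
Log2 change of each of the 111 peaks named COL6A1 or COL6A2 against distance from the COL6A1 start site in kb, for IL13, OSM, IL1B and TGFB1 against unstimulated cells (filled, called; open, not called). IL13 raised 32 peaks, from -9.94 to 143 kb, and the called peaks with IL1B all lie below 0.

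Past the 3′ end of COL6A1, 2 neighbouring peaks were raised by IL13 and lowered by IL1B and TGFB1. At the first, 46.2 kb past the start (chr21:46027681-46028181), the log2 changes were 1.40, -1.45 and -1.21. The other, 46.7 kb past the start (chr21:46028237-46028737), was more open and stood at 13.1, 14.0, 11.2 and 10.5 in unstimulated cells. With IL13 it stood at 32.0, 31.5, 29.1 and 35.7, with IL1B at 4.82, 4.8, 4.47 and 5.56, and with TGFB1 at 5.83, 5.69, 6.94 and 4.28. The log2 changes were 1.37 ± 0.18 for IL13 (adjusted p = 6.36e-09), -1.22 ± 0.18 for IL1B (6.82e-08) and -1.04 ± 0.18 for TGFB1 (8.83e-06). The difference of TGFB1 from IL13 was itself -2.41 ± 0.18 (adjusted p = 4.11e-27). The TNF call at this peak, with an adjusted p of 0.0499, was lost in 12 alternatives.

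A peak 40.3 kb past the start (chr21:46021845-46022345) was lowered by TNF, IL1B and TGFB1. It fell from 13.1, 10.9, 9.38 and 7.75 in unstimulated cells to 3.96, 4.35, 2.85 and 3.15 with TNF, 4.03, 2.2, 1.94 and 2.08 with IL1B and 2.08, 4.09, 3.2 and 3.83 with TGFB1. No library of these 3 groups overlapped the unstimulated range, and the log2 changes were -1.39, -1.84 and -1.51, each ± 0.21.

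COL6A3 encodes the longest type VI chain and lies on chromosome 2. It had the most peaks and the most called peaks of all collagen genes, 35 of 142 or 24.6%, against 12.5% of all peaks. Inside the gene IL1B lowered 7 of 71 peaks and raised 0, and OSM raised 6 and lowered 0. Summed over the 71 peaks, coverage was 207, 218, 202 and 185 in unstimulated cells, 143, 134, 135 and 145 with IL1B, 257, 262, 232 and 244 with OSM and 287, 234, 269 and 286 with IL13. The IL1B libraries lay below all unstimulated ones. So did those with TNF, at 172, 178, 155 and 165, and with TGFB1, at 183, 174, 178 and 160. The OSM and IL13 libraries lay above all unstimulated ones, although IL13 raised only 2 of the 71 peaks singly. The OSM sums rest on the composition factors, which were 0.870 to 0.923 in the OSM libraries and 1.004 to 1.024 in the unstimulated ones. Division by these factors raised OSM coverage against unstimulated coverage. The TGFB1 factors, from 1.065 to 1.135, lowered TGFB1 coverage against it. The sums of all groups and the OSM calls inside the gene are given under this scaling only. A peak 30.2 kb upstream (chr2:237444097-237444597) was lowered by 4 cytokines. It stood at 6.96, 8.98, 7.55 and 6.17 in unstimulated cells, at 2.38, 2.82, 1.35 and 1.29 with TNF, at 0.312, 2.48, 3.24 and 1.72 with IL1B, at 3.11, 3.79, 3.63 and 3.09 with TGFB1 and at 1.94, 2.0, 3.61 and 2.45 with OSM. These groups did not overlap the unstimulated libraries.

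Nearer the gene, the peak 18.7 kb upstream (chr2:237432618-237433118) went up instead, from 12.8, 12.9, 17.1 and 14.1 to 41.4, 34.3, 35.6 and 33.5 with TGFB1. That log2 change was 1.32 ± 0.16 (adjusted p = 4.95e-12), and TNF raised the same peak by 0.84 ± 0.16 (2.22e-05). The COL6A3 promoter peak was raised by OSM only, from 15.7 ± 1.82 to 24.5 ± 2.39, a call lost under library totals, median-of-ratios factors and loess offsets and without OSM replicate 2.

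COL1A1 encodes the main chain of type I collagen, the most abundant collagen of scar. It had 19 of 29 peaks called, or 65.5%, the highest share of any collagen gene, against 12.5% of all peaks. Its peaks also had the highest median level of the collagen genes, 9.85 coverage per Mb, against 0.974 for all collagen peaks. The share was not matched for level. IL1B lowered 14 of the 29 and raised 0, TNF lowered 12 and raised 1, while IL13 raised 4 and lowered 0. Summed over the 22 peaks inside COL1A1, coverage was 276, 259, 246 and 230 per Mb in unstimulated cells, 206, 151, 169 and 164 with IL1B, 175, 190, 198 and 193 with TNF and 360, 308, 356 and 376 with IL13. The IL1B and TNF libraries lay below all unstimulated libraries and the IL13 libraries above them. With IFNG the sums were 189, 208, 215 and 195, also below all unstimulated libraries. IFNG lowered 2 of the 29 peaks and raised 0, and the number lowered was 1 to 3 without one library at a time. With TGFB1 the sums were 242, 256, 237 and 213, which overlapped the unstimulated libraries.

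The count of COL1A1 calls leaned on single libraries: the IL13 calls ran from 0 to 4, with 0 without IL13 replicate 1, 1 without unstimulated replicate 3 and 2 without unstimulated replicate 4. With all libraries the IL13 calls rose to 6 with library totals or median-of-ratios factors, 7 with loess offsets, 8 with a mean of at least 1 per Mb or precision weights and 9 with only the 2 groups. The lowered calls with IL1B ran from 8, without IL1B replicate 2 or 4 or unstimulated replicate 1, to 15, and stood at 9 without IL1B replicate 3 or unstimulated replicate 2. Those with TNF were 5 without TNF replicate 1, 6 without unstimulated replicate 1, 7 without TNF replicate 3 or unstimulated replicate 3, and at most 10 without any other library. The promoter peak at the COL1A1 start (chr17:50201343-50201843, exon 1) was called for no cytokine and stood at 24.0 ± 2.59 in unstimulated cells. The F test over the 11 groups did call it (adjusted p = 7.25e-05), with group means from 19.4 with IL1B to 30.3 with IL13. A second promoter-class peak 1.7 kb upstream (chr17:50203076-50203576) fell from 8.93 ± 2.24 to 4.06 ± 1.44 with IL1B, a log2 change of -1.07 ± 0.21 (adjusted p = 7.33e-05).

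COL1A2 encodes the second chain of type I collagen and COL3A1 the chain of type III. Of 77 COL1A2 peaks 9 were called, or 11.7%, and of 25 COL3A1 peaks 4, or 16.0%, against 12.5% of all peaks. Their promoter peaks, at 13.4 ± 1.26 and 8.93 ± 1.98 in unstimulated cells, were called for no cytokine. COL5A1 and COL5A2 encode the type V chains that set fibril width. COL5A1 had 19 of 117 peaks called, or 16.2%, with 7 lowered by IL1B, 6 lowered by TGFB1 and 4 raised by OSM. Of all peaks, 1.7%, 2.58% and 3.29% were called in these ways. The OSM calls at this gene are given under this scaling only. A COL5A1 intron 9 peak (chr9:134735487-134735987) fell from 14.9, 16.5, 20.4 and 17.0 to 4.58, 6.71, 6.75 and 8.59 with TNF, and IL1B and TGFB1 lowered it too, with log2 changes of -1.33, -1.25 and -1.05, each ± 0.18. IFNA lowered it by -0.75, with libraries that overlapped the unstimulated ones, and that call was lost without IFNA replicate 1 or 3 or unstimulated replicate 3.

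COL7A1 encodes the anchoring fibril collagen. Its promoter peak 0.339 kb upstream (chr3:48595418-48595918) was called for 5 cytokines, more than any other collagen peak. It stood at 30.5, 28.2, 32.8 and 28.6 in unstimulated cells and was higher with TNF (59.7, 53.7, 41.3 and 53.0), IL1B (56.1, 47.4, 51.8 and 57.6), TGFB1 (45.0, 46.6, 46.8 and 42.0) and IFNA (52.8, 44.9, 34.8 and 44.9). With IL13 it was lower, at 19.2, 17.5, 17.4 and 16.4. None of these groups overlapped the unstimulated libraries. The log2 changes were 0.77, 0.81, 0.58, 0.54 and -0.75, each ± 0.12, and TGFB1 differed from IL13 by 1.33 ± 0.12 (adjusted p = 1.79e-19). The IFNA call was lost without IFNA replicate 1, and the library labelled IL6 replicate 4 stood at 16.2. Inside COL7A1, the peak over exons 9 to 11 (chr3:48591895-48592395) rose from 1.07, 0.615, 0.724 and 1.08 to 4.79, 4.11, 2.6 and 4.28 with TNF and 3.32, 3.74, 2.32 and 3.52 with IL1B, with no overlap with the unstimulated libraries.

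**Figure D4:**
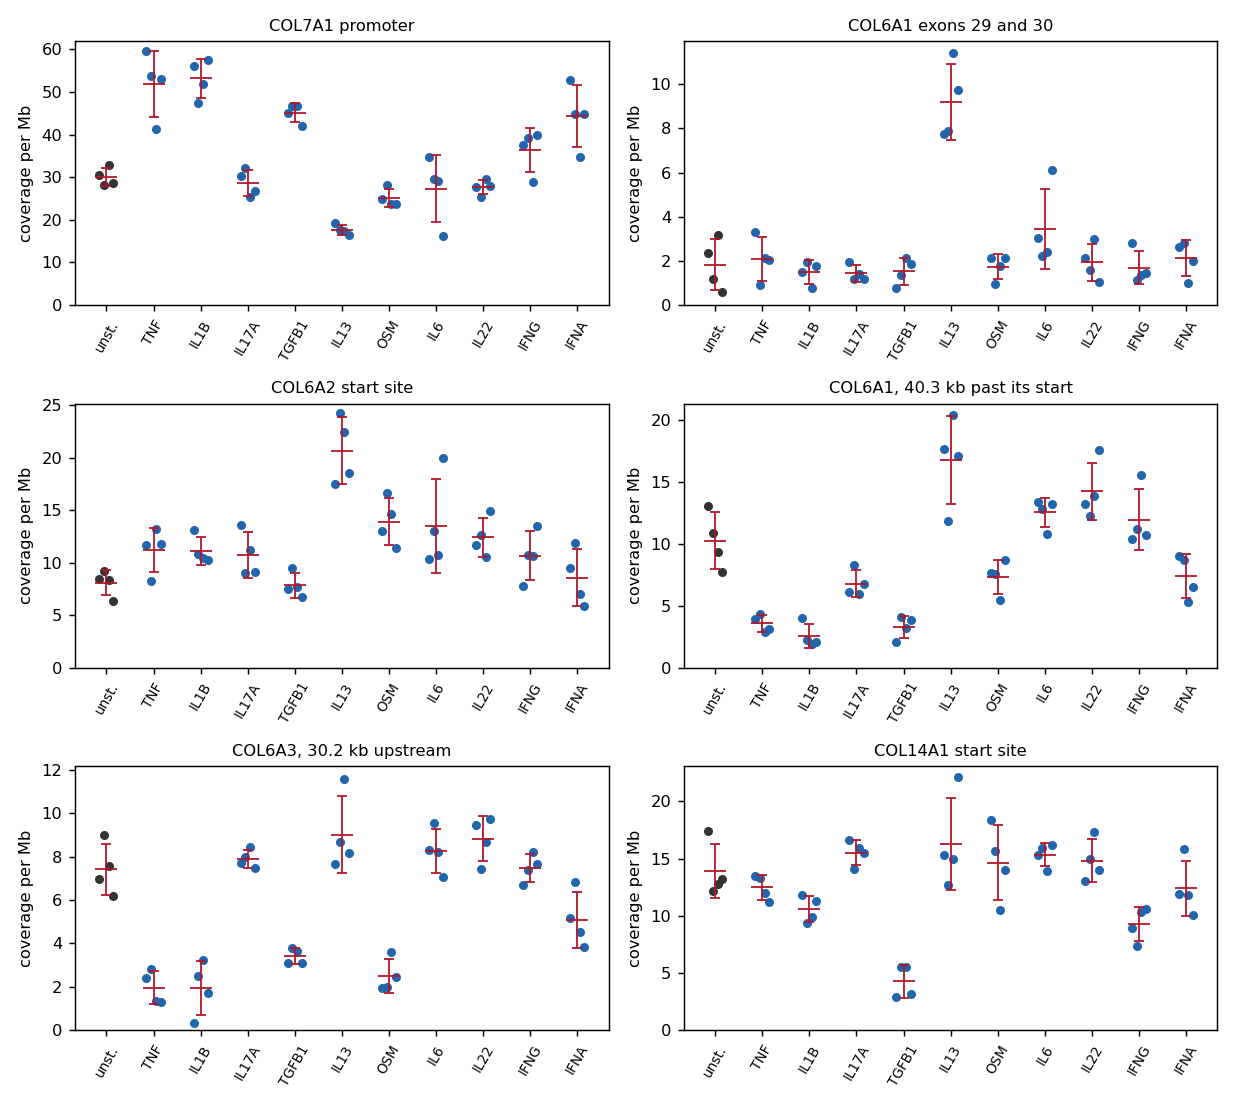
Coverage per Mb of 6 collagen peaks in all 11 groups (points are libraries, n = 4; the red line is the mean and its bar the SD; unst., unstimulated). The COL7A1 promoter is high with TNF, IL1B, TGFB1 and IFNA and low with IL13, and the COL6A1 exon peak is high with IL13.

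COL14A1 encodes a fibril-associated collagen that sits on type I fibrils. A peak over its start site (chr8:120124754-120125254, 0.098 kb upstream) fell from 17.4, 12.2, 12.8 and 13.2 to 2.86, 5.47, 5.5 and 3.19 with TGFB1 and was called for no other cytokine. The log2 change was -1.64 ± 0.18 (adjusted p = 8.79e-14), and TGFB1 differed from TNF there by -1.50 ± 0.18 (3.93e-12). An intron 4 peak of the same gene was lowered by TNF, IL1B and TGFB1, by -2.04, -1.42 and -1.59, each ± 0.27.

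COL8A1 encodes a network collagen of vessel walls. IL13 lowered 5 of its 79 peaks and raised 0, with 0.698% of all peaks lowered. At chr3:99505870-99506370 coverage was 3.23, 5.27, 3.77 and 5.67 in unstimulated cells, 9.14, 12.6, 8.48 and 11.3 with TNF and 3.17, 0.261, 0.749 and 1.77 with IL13, with no overlap between either group and the unstimulated one. At chr3:99504188-99504688 TGFB1 raised coverage by 1.28 ± 0.23 and IL13 changed it by -1.01 ± 0.23 with libraries that overlapped the unstimulated ones. The IL13 call was lost without IL13 replicate 3 or unstimulated replicate 3 or 4. The difference of TGFB1 from IL13 was 2.30 ± 0.23 (adjusted p = 1.53e-16). At chr3:99546138-99546638, which holds an interferon response motif, IFNG raised coverage from 2.17, 1.93, 2.72 and 0.851 to 5.23, 7.22, 9.63 and 9.34. The peak nearer the gene, chr3:99529229-99529729, stood at 1.52, 1.5, 1.86 and 2.88 in unstimulated cells, at 5.79, 5.71, 4.15 and 6.82 with IL1B, at 0.202, 0.0, 0.51 and 1.15 with IL13 and at 0.154, 0.0, 0.755 and 0.708 with OSM. All 3 calls there were lost without a single library: IL1B without IL1B replicate 4 or unstimulated replicate 1 or 2, IL13 without IL13 replicate 1 or 2 or unstimulated replicate 4, and OSM without OSM replicate 2.

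COL25A1 encodes a transmembrane collagen. Its intron 5 peak (chr4:109046800-109047300) rose from 11.1, 11.5, 11.6 and 12.0 to 32.0, 34.9, 36.5 and 30.5 with IFNG, and stood at 18.2, 22.5, 20.2 and 18.7 with IFNA. The log2 changes were 1.49 ± 0.17 (adjusted p = 2.39e-12) and 0.75 ± 0.17 (0.00797), and the IFNA call was lost without IFNA replicate 2. COL21A1 encodes a fibril-associated collagen. TNF raised a peak inside it (chr6:56372601-56373101) from 2.65, 1.75, 1.8 and 1.81 to 12.7, 11.1, 10.6 and 12.3, the largest collagen change with TNF at 2.29 ± 0.29 (2.61e-11). The intron 10 peak of this gene (chr6:56144514-56145014) was low, at 0.362, 0.381, 1.11 and 0.884 in unstimulated cells, 2.87, 3.77, 3.5 and 2.08 with IL1B and 2.41, 2.01, 2.54 and 2.67 with TNF. Neither cytokine overlapped the unstimulated libraries there, and the TNF call was lost without unstimulated replicate 1 or 2. COL12A1, whose product also lies on fibril surfaces, had a peak 354 kb past its start (chr6:74851512-74852012) that TNF raised by 1.23 ± 0.28 and OSM changed by -1.01 ± 0.28, a call lost without OSM replicate 1 or 3 or unstimulated replicate 3.

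COL5A3 encodes a minor type V chain. Its intron 1 peak (chr19:10008787-10009287) rose from 5.31, 6.11, 3.89 and 2.54 to 10.7, 12.6, 11.0 and 8.09 with IFNA, by 1.20 ± 0.25 (adjusted p = 0.00195), a call lost without unstimulated replicate 4. In COL13A1, an intron 1 peak (chr10:69807090-69807590) stood at 1.88, 2.01, 1.51 and 1.67 in unstimulated cells and was higher with TNF, OSM, IFNG and IFNA, by 1.36, 0.94, 1.22 and 1.11. The OSM call was lost under library totals, median-of-ratios factors and loess offsets and without OSM replicate 2, 3 or 4 or unstimulated replicate 3 or 4. The IFNA call was lost without IFNA replicate 1, 2 or 4 or unstimulated replicate 1, 3 or 4. A peak named COL8A2 that lies inside TRAPPC3 (chr1:36136499-36136999) rose from 3.68, 3.11, 4.3 and 4.06 to 11.8, 11.2, 9.85 and 11.6 with OSM. The COL28A1 intron 11 peak shown among the AP-1 windows rose from 0.824 ± 0.453 to 4.7 ± 1.02 with TNF.

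Of 72 promoter-class peaks, 8 were called for at least 1 cytokine, or 11.1%, against 15.9% of the 622 distal, 22.2% of the 108 exonic and 14.6% of the 948 intronic collagen peaks. The difference between these classes was not tested. Of the 44 genes 37 had a promoter-class peak. Among the peaks nearest the start, COL7A1, COL12A1, COL1A1 and COL5A1 were the most open in unstimulated cells, at 30.0 ± 2.13, 27.4 ± 1.28, 24.0 ± 2.59 and 21.2 ± 1.59. Neighbours in this order overlapped: the libraries ran from 28.2 to 32.8, 25.9 to 28.7, 21.7 to 27.7 and 19.6 to 22.6.

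Coverage summed over all peaks of a gene was tested for 23388 genes. IL13 changed 6 of the 44 collagen genes, against 5.38% of all genes, IL1B 12 against 10.3%, TNF 4 against 12.9%, TGFB1 10 against 24.8%, OSM 18 against 34.7%, IFNG 3 against 5.24% and IFNA 2 against 2.55%. By limma IL6 and IL17A changed 0, each against 0.0385%, and IL22 0 against 0.214%, with 5, 2 and 5 genes at an unadjusted p under 0.05. The share of all genes at that unadjusted level is not given here. The IL13 count was 3 without IL13 replicate 1 or unstimulated replicate 4, and the TGFB1 count 5 without TGFB1 replicate 4 or unstimulated replicate 2. COL6A1 rose with IL13 from 225.5 ± 17.3 to 440.0 ± 27.8, a log2 change of 0.96 ± 0.07 (adjusted p = 1.02e-16), and COL1A1 fell with IL1B from 300.6 ± 17.3 to 203.9 ± 25.2, by -0.57 ± 0.08 (2.49e-07). COL7A1 rose with TNF by 0.57 ± 0.08 (1.34e-07).

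**Figure D5:**
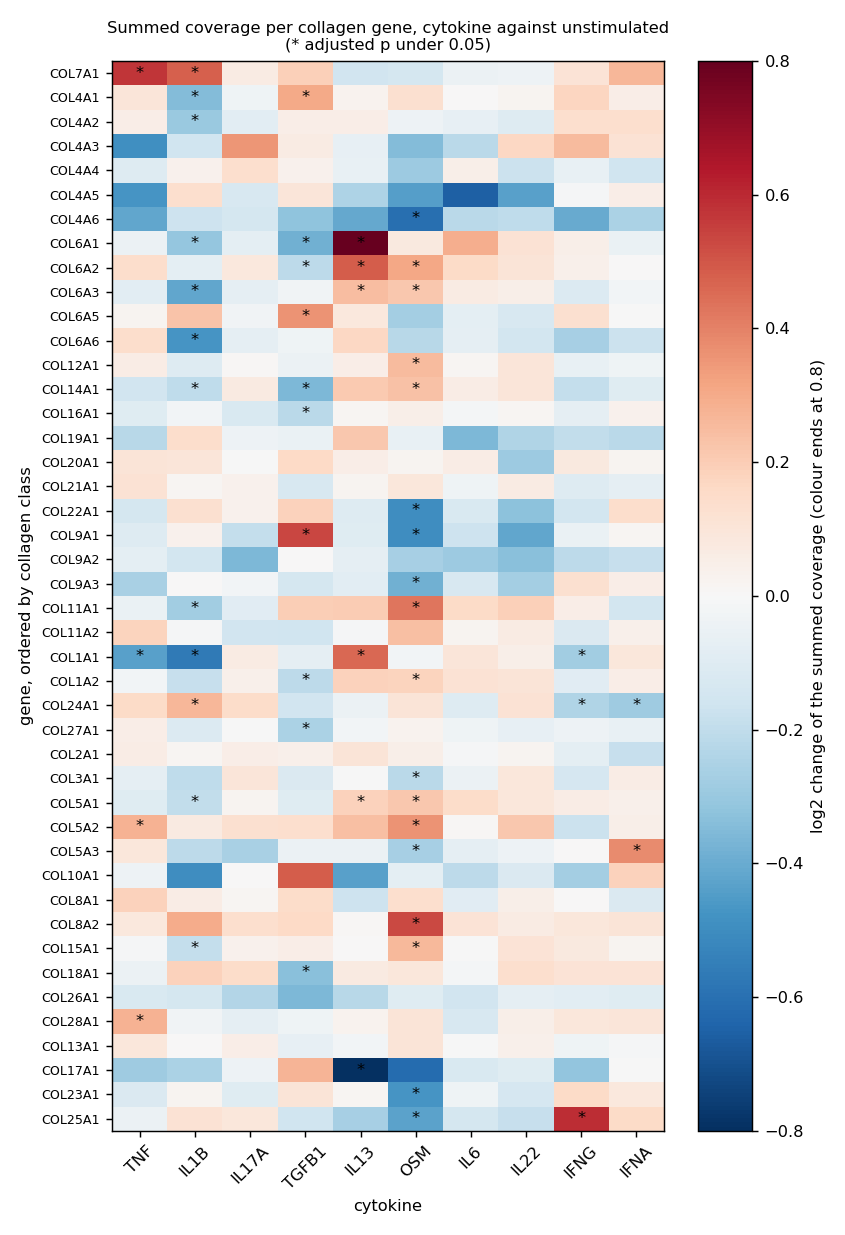
Log2 change of summed coverage for the 44 collagen genes (rows, by collagen class) with each cytokine (columns) against unstimulated cells; stars mark an adjusted p under 0.05 and colour ends at 0.8. The IL13 column is highest at COL6A1, at 0.96.

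TGFB1 was set directly against the other 2 cytokines. Against TNF, 33 collagen peaks were higher with TGFB1, with 1.12% of all peaks called that way, and 49 were lower, with 3.27% of all peaks. COL1A1 gave 9 of the 33. Against IL13, 62 were higher with TGFB1, with 3.45% of all peaks, and 160 lower, or 9.14%, against 4.6% of all peaks. COL6A1 gave 36 of the 160 and COL6A2 17. The median difference over all peaks was 0.11. All cytokine comparisons share the same 4 unstimulated libraries.

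Of the 52 peaks raised by IL13, 11 held the STAT6 motif, TTC and GAA with 4 bases between them, or 21.2%, against 14.4% of all peaks and 17.4% of all collagen peaks. The share was as high or higher in peaks raised by TNF, at 22.7%, raised by OSM, at 21.4%, and lowered by TGFB1, at 30.6%. AP-1 letters were in 28 of the 44 peaks raised by TNF, or 63.6%, in 15 of the 20 raised by IL1B, or 75%, and in 9 of the 12 lowered by IL13, or 75%, against 25.7% of all peaks. Among the 43 lowered by TNF they were in 4, or 9.3%. The NF-kB motif was in 12 of the 44 peaks raised by TNF, or 27.3%, against 8.48% of all peaks. It was in 5 of the 20 raised by IL1B, or 25.0%, and in 2 of the 6 raised by IFNA, or 33.3%. Of the 25 raised by TGFB1 it was in 2, and of the 15 raised by IFNG in 0. The interferon response motif was in 6 of the 15 raised by IFNG, or 40.0%, and in 6 of the 16 lowered by OSM, or 37.5%, against 9.11%. The SMAD motif GTCTAGAC was in 0 of the 25 raised by TGFB1, against 0.341% of all peaks. It is too rare for 25 peaks to show a lack of it. A peak that held several motifs was counted for each. These shares are descriptions, with no test.

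The 50 genes that fold, crosslink, anchor or degrade collagen had 1426 peaks tested. TNF raised 62 of these, or 4.35%, against 2.59% of all peaks, and lowered 19, or 1.33%, against 1.47%. IL1B raised 37, or 2.59%, against 1.44%, and lowered 42, or 2.95%, against 1.7%. With TGFB1, 25 were raised, or 1.75%, against 1.14%, and 41 lowered, or 2.88%, against 2.58%. With OSM, 54 were raised, or 3.79%, against 3.29%, and 15 lowered, or 1.05%, against 1.06%. With IL13, 9 were raised, or 0.631%, against 0.604%, and 11 lowered, or 0.771%, against 0.698%. IFNG raised 10 and lowered 4, or 0.701% and 0.281%, against 1.36% and 0.211%, and IFNA raised 4 and lowered 8, or 0.281% and 0.561%, against 0.339% and 0.281%. Called in either direction, the OSM count of 69 became 37 without OSM replicate 2 and 40 without OSM replicate 1 or 3 or unstimulated replicate 4, and the TGFB1 count of 66 became 43 without unstimulated replicate 3. IL22 raised 2, or 0.14%, against 0.0437% of all peaks. IL6 and IL17A called 0 by limma, against 0.042% and 0.0273% of all peaks. At an unadjusted limma p under 0.05 they had 108 and 88 of the 1426, against 8.1% and 6.28% of all peaks. TNF raised a peak 16.4 kb upstream of MMP13, which encodes a collagenase, from 0.605 ± 0.281 to 9.25 ± 2.06, a log2 change of 3.16 ± 0.36 (adjusted p = 1.33e-13). It lowered an intron peak of PLOD2, whose product hydroxylates collagen lysines for crosslinking, by -1.89 ± 0.25 (2.49e-10). TGFB1 raised an intron peak of BMP1, the protease that trims procollagen, from 10.3 ± 2.43 to 30.6 ± 3.5, and lowered a peak of TNXB, which encodes the matrix glycoprotein tenascin X, by -1.82 ± 0.23 (2.42e-10). IL13 raised a peak assigned to LOXL3, a lysyl oxidase, that lies inside M1AP, from 5.59 ± 2.03 to 15.0 ± 2.07.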

How the data were processed

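Per the study's methods, the authors aligned the ATAC-seq reads to hg38 with the ENCODE pipeline and called peaks of variable length with MACS2. The deposited table holds summed read coverage (signal) per peak and library, not scaled to depth. Its peaks are 500 bases wide, and how these were made is not given in the sources used here. Read length and read counts are not given in the sources used here. Groups and doses came from the labels. For each library, coverage was divided by its total over all peaks and by a trimmed-mean composition factor, peaks with a log2 mean above -3 were kept (221 were left out), and log2(value + 0.5) was fitted with limma 3.58.1 in R 4.3.3 (group as the only term, trended variance, all 44 libraries), with Benjamini-Hochberg adjustment over 407162 peaks per comparison. Tables and figures were made with Python 3.11.15. Gene positions are from GENCODE v44 on hg38. The script was tested on simulated coverage. The collagen members, gene lists and tests were chosen with earlier results of these data known, so they are not independent of them. Described were, per cytokine, from up to 3 raised and 3 lowered peaks of the largest change (mean of at least 1 per Mb, no overlap with unstimulated libraries), the peaks called for most cytokines, the start-site peaks of the main collagens and the genes with most calls. Alternatives were library totals, median-of-ratios factors, loess offsets, pseudocounts of 0.1 and 2, no filter or a mean of at least 1 per Mb, a GC correction, precision weights, a replicate block, only the 2 groups compared, promoter-class peaks only for gene totals, and leaving out each library in turn.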

Additional observations from a re-analysis of the deposited data

Results flagged for a closer look

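Of 101 groups of 4 values looked at, 7 held a value far from the other 3, and chance gives about 1 in 20. In coverage per library these were TNF replicate 4 at 727 Mb, IFNG replicate 2 at 658 Mb and IFNA replicate 2 at 823 Mb. Among collagen peaks, the COL21A1 peak at chr6:56372601-56373101 stood at 2.65 coverage per Mb in unstimulated replicate 1, the COL25A1 intron 3 peak at chr4:109171049-109171549 at 0.0 in unstimulated replicate 1, the COL6A1 peak at chr21:46021845-46022345 at 4.03 in IL1B replicate 1, and the COL8A1 peak at chr3:99503362-99503862 at 3.29 in IFNG replicate 4.

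By the direct limma contrast, effects of TGFB1 differed from those of TNF at 82 collagen peaks, or 4.69%, against 4.39% of all peaks. They differed from those of IL13 at 222, or 12.7%, against 8.05% of all peaks. At 3 of the peaks chosen by the rule for description, TGFB1 and IL13 were both called and in opposite directions. The log2 difference of TGFB1 from IL13 was 1.33 at the COL7A1 promoter, -2.41 at the COL6A1 peak 46.7 kb past the start and 2.3 at the COL8A1 peak chr3:99504188-99504688.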

How the results depend on the processing

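Of the counts of collagen peaks and genes called per comparison, recomputed with another scaling, pseudocount, filter or model, 152 stayed within 1.5 times and 10 did not. Of the counts of gene totals per cytokine and of peaks at collagen maturation and remodelling genes, 155 stayed and 45 did not, and without 1 library 120 stayed and 40 did not. Of these, gene totals called with IL13 went from 6 to 11 with library totals, those with TNF from 4 to 8 and those with IFNG from 3 to 8, and the peaks at remodelling genes called with OSM from 69 to 41 with library totals, and rose by over 1.5 times with only the 2 groups. With only the 2 groups compared, OSM called 99 collagen peaks and IFNG 33. IL6 called 2 with loess offsets and 0 with the GC correction, a mean of at least 1 per Mb, no filter, only the 2 groups, pseudocount 0.1 and pseudocount 2. Gene totals called fell to 15 with promoter-class peaks only. Leaving out 1 library at a time gave 56 to 82 calls for IL1B, 33 to 49 for OSM, 0 to 5 for IL6, 12 to 16 for IFNG, 6 to 11 for IFNA and 53 to 65 for TGFB1 against TNF. The cause was not tested. Of the log2 changes of described peaks none reversed, 50 lost the call and 1027 kept it under another setting, and 151 lost it and 633 kept it without a library. The replicate block changed no count by over 1.5 times. The replicate numbers showed little pairing of the libraries: deviations of same-numbered libraries correlated at a median of 0.002, with 0 of 40 pairs above 0.1 and the highest at 0.028. Of the 40, 16 correlated best with their own number, more than an even draw from the 4 unstimulated libraries would give. With the replicate block TNF called 89 peaks, IL1B 90, TGFB1 77, IL13 65, OSM 59, IFNG 20, IFNA 10 and IL6 1. Depth limits low peaks: in the shallowest library 402 collagen peaks had no coverage.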
